A study of Mus musculus with 8 samples.

Results

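The cytosolic ribosomal protein genes were followed in whole pancreas of NOD mice and 3 related lines. They were chosen by symbol: a single platform symbol that begins with Rpl or Rps and a digit, or with Rplp and a digit, or Rpsa. Kinases of the Rps6k family, pseudogene names and mitochondrial ribosomal proteins were left out. The rule gave 35 genes, 17 of the large subunit and 18 of the small subunit, of 8251 genes with a probe set of 1 symbol. They were read by 49 probe sets, and the probe set with the brightest mean stood for its gene.

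Cytosolic ribosomes translate nearly all cellular mRNA. The small subunit decodes the mRNA and the large subunit joins the amino acids. Their proteins are encoded by highly expressed genes whose mRNAs carry a pyrimidine tract at the 5′ end, through which MTOR signalling controls their translation. The acinar cells that make up most of the pancreas are packed with ribosomes on the endoplasmic reticulum and secrete digestive enzymes at a high rate.

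The study used 4 groups of 2 arrays each, all on the NOD background and all from mice aged 3 weeks. BDC2.5/NOD.scid mice carried the BDC2.5 transgene, the rearranged T cell receptor of a CD4 T cell clone that reacts with islets, together with the scid mutation of Prkdc. NOD.scid mice carried scid without the transgene and lack mature lymphocytes. BDC2.5/NOD mice carried the transgene with their own lymphocytes, and NOD mice carried neither allele. Per the labels, RNA of 6 animals was isolated 2 times and pooled, so each array reads a pool of mice. Sex is unstated, as is whether the arrays of a group read separate pools; the p-values cover array-to-array spread alone, and this spread may be technical. In RNA of a whole organ, fewer cells of a type and less RNA per cell cannot be told apart.

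The summed level of 12 acinar genes was 15.87 to 15.95 on the log2 scale on all 8 arrays, as the tissue label calls for. Array medians over all probe sets were 4.24 to 4.30. The middle actin control read 9.26 to 9.55 on BDC2.5/NOD.scid replicate 2, NOD.scid replicate 1 and NOD replicate 1, against 6.95 to 7.74 on the other 5 arrays. The BioB hybridization control was 7.02 and 7.06 on the BDC2.5/NOD arrays, against 5.89 to 6.44 elsewhere. Signs of RNA quality differed too. The actin 3′ to 5′ ratios were 3.16 and 3.17 on the BDC2.5/NOD arrays, against 4.90 and 3.53 on the NOD arrays. They were 3.15 and 4.14 on the BDC2.5/NOD.scid arrays and 3.94 and 3.29 on the NOD.scid arrays. Gapdh gave 1.78 and 1.77 on the BDC2.5/NOD arrays, against 2.43 and 1.86 on the NOD arrays. It gave 1.74 and 1.78 on the BDC2.5/NOD.scid arrays and 1.85 and 1.66 on the NOD.scid arrays. Both ratios were highest on NOD replicate 1. NOD replicate 1 also read highest in the 3′ probe set of 18S ribosomal RNA, at 6.77, against 5.29 to 6.04 on the other arrays. The BioB difference cannot be told apart from any result that uses the BDC2.5/NOD pair.

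The ribosomal protein genes fell into a bright and a dim set. The mean over 8 arrays exceeded 8 for 19 genes, of which Rps19 was the dimmest at 8.29. It was at most 6.91, the value of Rps13, for the other 16. The limit of 8 was placed in this gap after the values were seen, so counts on either side of it carry no test. Rpl41, a very short basic protein at the subunit interface, had the brightest probe set. It read 12.59 and 12.66 in BDC2.5/NOD.scid, against 12.68 and 12.58 in NOD.scid. Its BDC2.5/NOD values were 12.36 and 12.40, against 12.77 and 12.66 in NOD. Rps15, a small subunit protein near the decoding site, had the dimmest, at 2.83 and 2.87 in BDC2.5/NOD.scid, against 2.70 and 2.78 in NOD.scid. Its BDC2.5/NOD values were 2.69 and 2.60, against 2.68 and 2.60 in NOD. Brightness depends on the probe sequence, so these values do not order the genes by abundance. The means of 8 of the 35 genes lay below the median of all probe sets, 4.27.

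**Figure D1:**
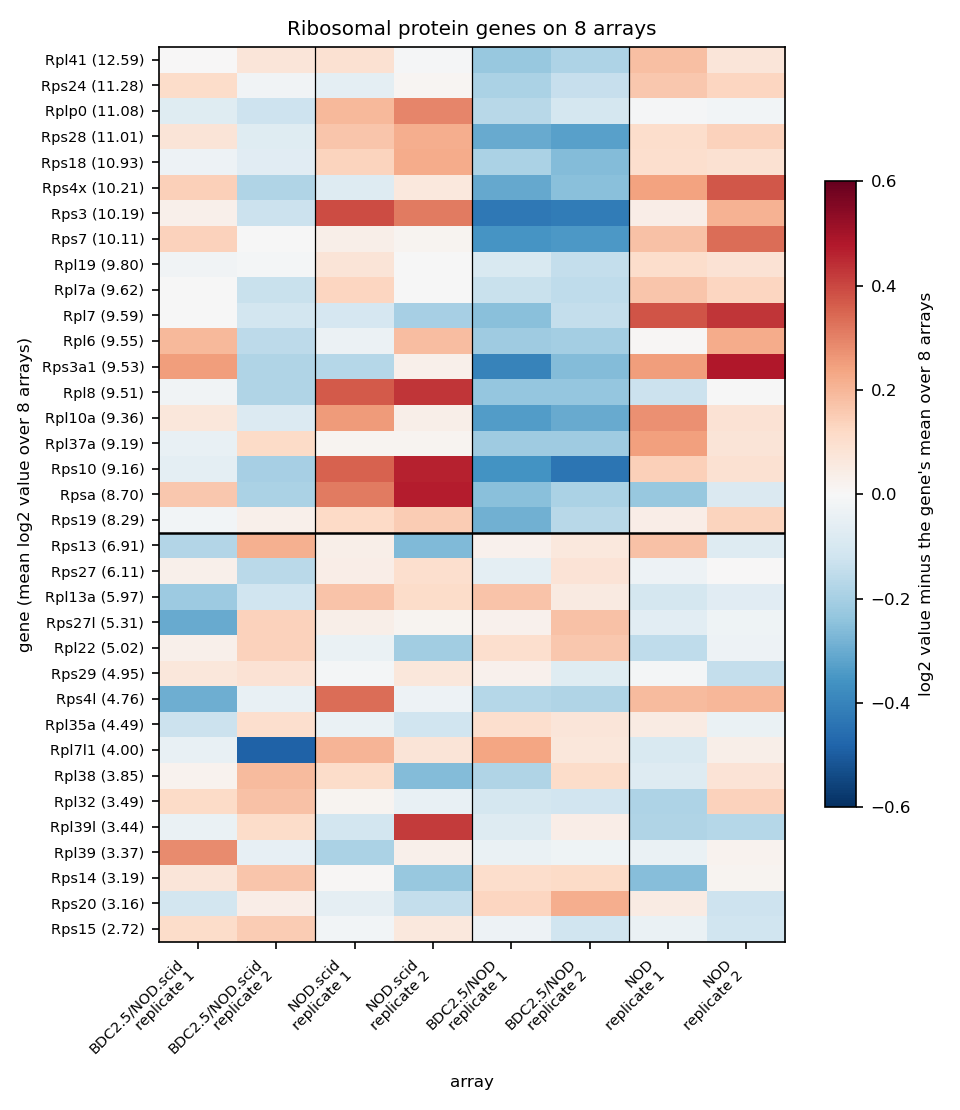
Deviation of each of the 35 ribosomal protein genes (rows, with their mean log2 value) from its own mean over 8 arrays (columns, 2 per group), with a line between the 19 genes above 8 and the 16 below. Nearly the whole upper block is blue on both BDC2.5/NOD arrays, while the lower block shows no such column.

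Across the 19 bright genes, the 2 BDC2.5/NOD arrays stood lowest. The median deviation from the gene's own mean was 0.00 and -0.11 on the BDC2.5/NOD.scid arrays, against 0.12 and 0.06 on the NOD.scid arrays. It was -0.25 and -0.21 on the BDC2.5/NOD arrays, against 0.15 and 0.13 on the NOD arrays. Replicate 1 of BDC2.5/NOD was the lowest array for 14 of the 19 genes and replicate 2 for the other 5. Both BDC2.5/NOD arrays lay below all other 6 for 15 of the 19, as they did for 7.58% of all probe sets. The highest values were divided between the groups without the transgene. Both NOD.scid arrays lay above the other 6 for 7 genes (Rpl8, Rplp0, Rps10, Rps18, Rps28, Rps3 and Rpsa), against 6.45% of all probe sets. Both NOD arrays did so for 6 genes (Rpl19, Rpl7, Rpl7a, Rps24, Rps4x and Rps7), against 6.07% of all probe sets.

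Promoter sequences are shown for 5 of the genes that were lower in BDC2.5/NOD, 4 with and 1 without marked letters, because the pyrimidine tract at the transcription start and the letters CCGGAAG, the core read by ETS-family factors, are well-known features of this gene class. Each line gives the coding strand 5′ to 3′ in GRCm38.p6, covering 50 bases before to 30 bases after the RefSeq start, and all 5 genes lie on the minus strand. Capitals mark runs of at least 8 C or T, and CCGGAAG or its reverse complement.
Rps7 (chr12:28635924-28636003): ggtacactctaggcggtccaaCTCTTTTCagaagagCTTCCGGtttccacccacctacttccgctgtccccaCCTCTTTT
Rps10 (chr17:27635215-27635294): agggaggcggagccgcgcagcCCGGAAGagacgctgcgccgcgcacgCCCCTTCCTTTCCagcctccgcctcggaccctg
Rps18 (chr17:33955636-33955715): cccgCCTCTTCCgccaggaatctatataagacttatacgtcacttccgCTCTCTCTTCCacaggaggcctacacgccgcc
Rps3a1 (chr3:86142639-86142718): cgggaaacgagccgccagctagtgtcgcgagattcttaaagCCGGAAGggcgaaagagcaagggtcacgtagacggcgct
Rps4x (chrX:102189362-102189441): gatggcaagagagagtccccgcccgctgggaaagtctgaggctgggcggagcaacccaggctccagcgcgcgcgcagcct

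In Rps10 and Rps18 a run of C and T spans the annotated start. Promoter records existed for 28 of the 35 genes, with 37 starts in all. A run of at least 8 C or T on the coding strand, 50 before to 50 after the start, was present in 64.9% of these records, against 35.7% of all 32851 promoter records. CTTTCC in the same window, which overlaps such runs, was present in 37.8% against 4.69%. CCGGAAG on either strand in the whole record of 300 bases was present in 32.4% against 8.86%. AAGATGG on either strand, the core read by YY1, was present in 24.3% against 6.34%. TATAAA on the coding strand within 50 bases of the start was present in 5.41% against 3.4%. Of the 12 genes with a record that were lower in BDC2.5/NOD, 5 (Rpl37a, Rpl41, Rps28, Rps3 and Rps4x) held neither a run nor CCGGAAG in the 80 bases around any annotated start. These matches are letters in a window and not measured sites.

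With the transgene in mice that keep their own lymphocytes, 13 of the 35 ribosomal protein genes fell and 0 rose in BDC2.5/NOD against NOD, by limma adjusted p under 0.05 over all 12422 probe sets. Of all probe sets, 4.06% were lower and 3.91% higher by the same rule. At an unadjusted limma p under 0.05, 17 genes were lower and 1 higher, against 10.4% of all probe sets lower and 13.2% higher. The 13 genes were all bright, and the log2 fold change was below 0 for all 19 bright genes, between -0.69 and -0.06. The median log2 fold change was -0.16 over the 35 genes and -0.34 over the 19 bright genes, against 0.03 over all probe sets. Of the small subunit genes 9 of 18 fell, and of the large subunit genes 4 of 17. At an unadjusted limma p under 0.05, 10 of 18 and 7 of 17 were lower, so the gap between subunits depended partly on the threshold. Both BDC2.5/NOD arrays lay below both NOD arrays for 19 of the 35 genes, as for 22.8% of all probe sets, and above both for 8, as for 33.5% of all probe sets.

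Rps3a1, a small subunit protein near the exit of the mRNA channel, read 9.13 and 9.27 in BDC2.5/NOD, against 9.78 and 10.01 in NOD. Its log2 fold change was -0.69 (SE 0.135, limma adjusted p = 0.00757), the largest size among the 35 genes in this comparison. Rps7, a small subunit protein needed for processing of the ribosomal RNA precursor, read 9.76 and 9.77 in BDC2.5/NOD, against 10.29 and 10.45 in NOD. The log2 fold change of Rps7 was -0.60 (SE 0.085, limma adjusted p = 0.00108), or 1.52-fold lower. The groups did not overlap for either gene, and the 2 BDC2.5/NOD arrays gave nearly the same Rps7 value.

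Rps4x, the X-linked small subunit gene whose human counterpart has a homologue on the Y chromosome, read 9.90 and 9.96 in BDC2.5/NOD, against 10.45 and 10.58 in NOD. It fell by 0.58 on the log2 scale (SE 0.106, limma adjusted p = 0.00503). Both NOD arrays lay above the 2 BDC2.5/NOD arrays. The 4 other probe sets of Rps4x, with means of 3.22 to 4.96, had log2 fold changes of -0.15 to 0.30 and did not pass. The mean of its 5 probe sets gave a log2 fold change of -0.03. Rps3, which lies at the entry of the mRNA channel, read 9.76 and 9.77 in BDC2.5/NOD, against 10.23 and 10.40 in NOD. Its log2 fold change was -0.55 (SE 0.089, limma adjusted p = 0.00235), and the groups were well apart. Rps10, a protein of the small subunit head, read 8.80 and 8.72 in BDC2.5/NOD, against 9.30 and 9.25 in NOD. It fell by 0.52 on the log2 scale (SE 0.086, limma adjusted p = 0.00301), again with no overlap.

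Among large subunit genes, Rpl7, whose protein lies near the 5S ribosomal RNA, read 9.34 and 9.45 in BDC2.5/NOD, against 9.97 and 10.02 in NOD. Its log2 fold change was -0.60 (SE 0.084, limma adjusted p = 0.00103). This probe set may read several transcripts by its suffix and shares its source accession with the probe set of Rps24. The second probe set of Rpl7, with a mean of 3.74, gave a log2 fold change of 0.09 and did not pass. The other large subunit genes that fell were Rpl10a, of the L1 stalk, with a log2 fold change of -0.50, the zinc-binding Rpl37a with -0.37 and Rpl41 with -0.34. Their limma adjusted p lay between 0.00889 and 0.0236. Rpl6, Rpl7a, Rpl19, Rpl8 and Rplp0 did not pass.

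Rps28, a small subunit protein near the mRNA exit, had probe sets that went opposite ways past the threshold. Its representative read 10.71 and 10.69 in BDC2.5/NOD, against 11.12 and 11.15 in NOD, a log2 fold change of -0.44 (SE 0.079, limma adjusted p = 0.00492). A dim probe set of the same gene read 5.43 and 5.33 in BDC2.5/NOD, against 5.03 and 4.89 in NOD, a log2 fold change of 0.42 (limma adjusted p = 0.0459). Another bright probe set read 10.44 and 10.45 in BDC2.5/NOD, against 10.76 and 10.82 in NOD, and its log2 fold change of -0.35 did not pass. Both bright probe sets of Rps28 were thus lower in BDC2.5/NOD, and the mean of the 3 gave -0.12. Rps18, Rps19 and Rps24 completed the small subunit genes that fell, with log2 fold changes of -0.32, -0.32 and -0.31.

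**Figure D2:**
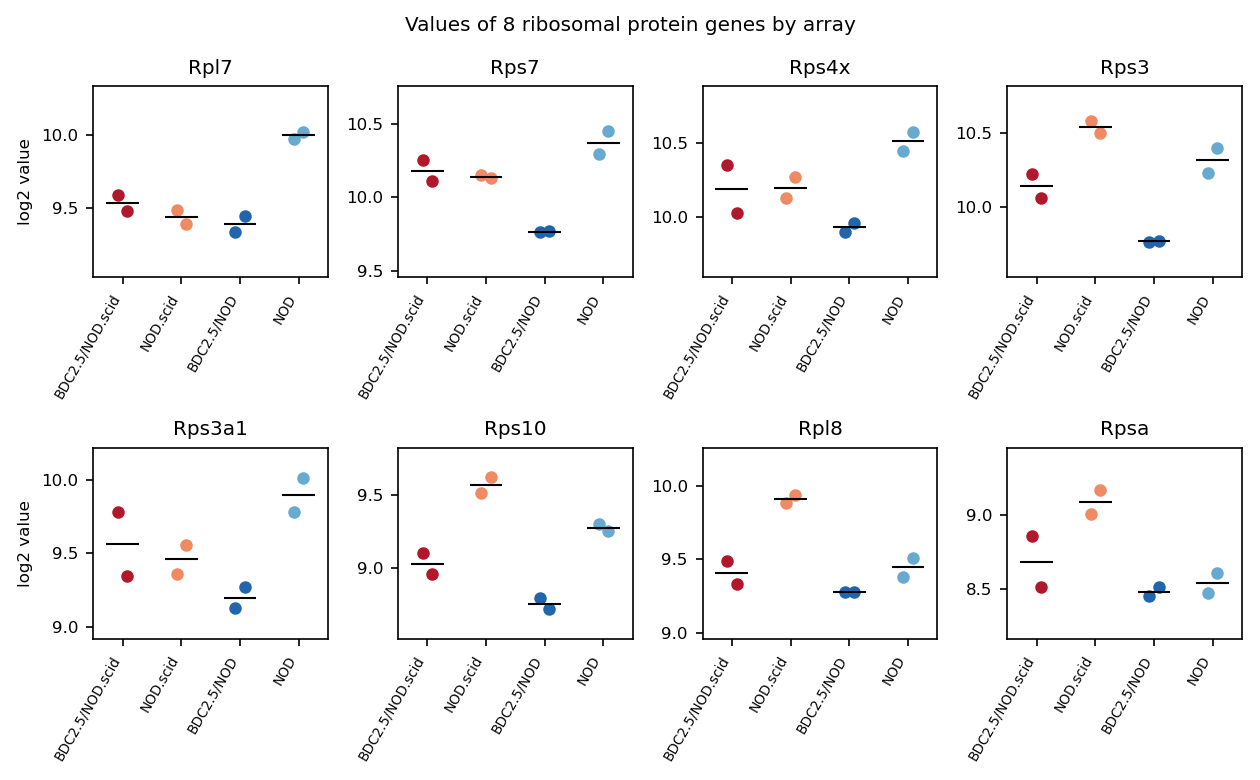
Log2 values of 8 ribosomal protein genes on each array (points) with group means (bars), in panels that all span 1.3 log2 units. Rps7, Rps3 and Rps10 were lowest on both BDC2.5/NOD arrays, Rpl7 stood high on the 2 NOD arrays, and Rpl8 and Rpsa stood high on the 2 NOD.scid arrays.

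Of 18 listed genes whose human counterparts are mutated in Diamond-Blackfan anaemia, a red cell aplasia caused by ribosomal protein deficiency, 8 were measured by a probe set of 1 symbol. In BDC2.5/NOD against NOD, 5 of these fell, namely Rps7, Rps10, Rps19, Rps24 and Rps28. All 5 belong to the 19 bright genes, of which 13 fell, so nothing particular to the disease genes can be read from the count. The representative probe set of Rps24 shares its source accession with that of Rpl7, so it may not read Rps24 alone. The second probe set of Rps24, with a mean of 3.72, gave a log2 fold change of 0.22 and did not pass. The other 3 measured, Rps27, Rps29 and Rpl35a, were in the dim set and did not pass. Of 4 paralogs of a core protein (Rpl7l1, Rpl39l, Rps4l and Rps27l), 0 passed. None of the 16 dim genes passed in this comparison, with 1 higher and 1 lower at an unadjusted limma p under 0.05, and their median log2 fold change was 0.07.

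A further 39 probe sets join a ribosomal protein symbol with other symbols and can be described only as a group. Of these, 16 were lower and 1 higher in BDC2.5/NOD against NOD, with a median log2 fold change of -0.31. Of the 23 that were above 8, 16 were lower and 0 higher. The lower calls were also more frequent among other bright probe sets. Of 223 probe sets above 8 that read no ribosomal protein, 17.9% were lower and 10.3% higher, with a median log2 fold change of -0.06.

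**Figure D3:**
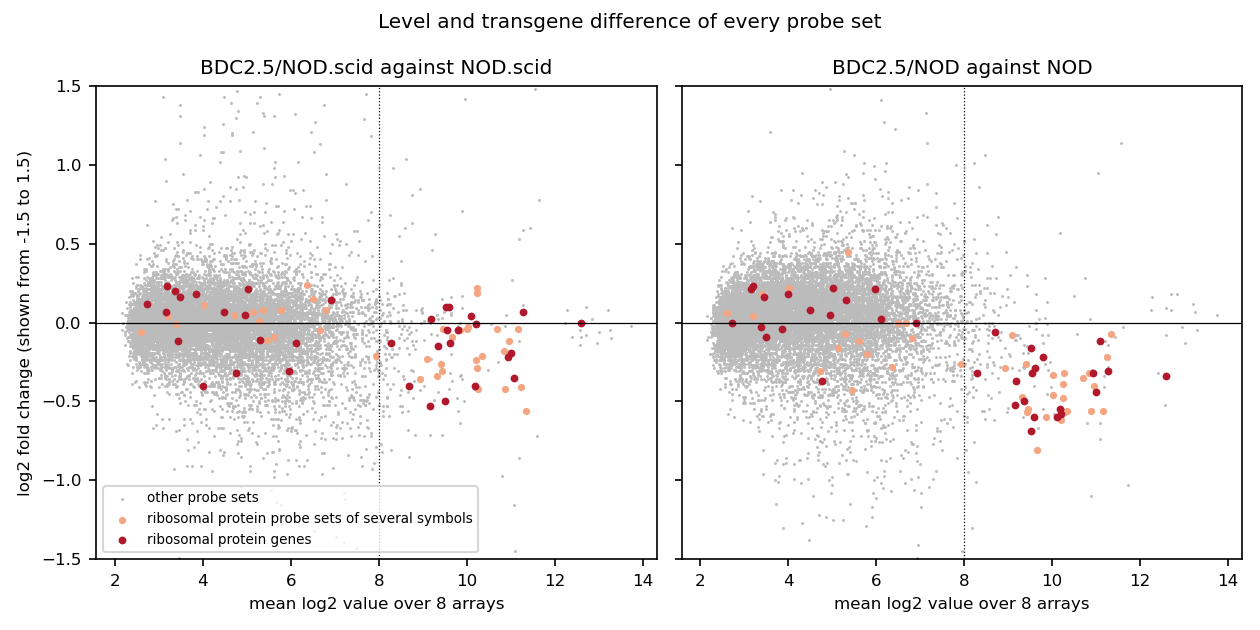
Log2 fold change of each probe set (vertical axis) against its mean log2 value over 8 arrays (horizontal axis) for the 2 transgene comparisons, with the ribosomal protein genes in dark red, probe sets of several symbols in orange and all others in grey. Right of the dotted line at 8, all 19 ribosomal protein genes lay below 0 in BDC2.5/NOD against NOD, and 14 of 19 in BDC2.5/NOD.scid against NOD.scid.

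Markers of other cells moved in the same comparison. Of 10 fibroblast and matrix genes 7 were lower, and their summed level was 9.68 to 9.70 in BDC2.5/NOD, against 10.38 to 10.41 in NOD, on the log2 scale. Of 12 islet genes 5 were lower, with sums of 11.03 to 11.07 in BDC2.5/NOD and 11.76 to 11.80 in NOD. Of 6 erythroid genes 2 were lower, with sums of 10.55 to 10.58 in BDC2.5/NOD and 11.09 to 11.26 in NOD, and 2 of 8 neutrophil genes were lower. Of 7 duct genes 2 were higher and 1 lower, with sums of 9.82 to 9.92 in BDC2.5/NOD and 9.47 to 9.59 in NOD. Acinar genes, 12 measured of 21 listed, gave 2 higher and 1 lower, with log2 fold changes of -0.52 to 0.95. Their sums hardly differed, at 15.89 to 15.95 in BDC2.5/NOD and 15.89 to 15.91 in NOD. The part of these cells, and of the 3′ to 5′ ratios above, in the fall of ribosomal protein genes was not tested. Within the arrays of low actin control, which hold both BDC2.5/NOD arrays and NOD replicate 2, all 19 bright genes were lower in BDC2.5/NOD, with a median log2 fold change of -0.37. The count of 13 depended on replication: it was 3 without BDC2.5/NOD replicate 2, 4 without BDC2.5/NOD replicate 1 and 7 without NOD replicate 1. Cyclic loess, which takes out shifts that depend on level, gave 7 genes, and 0 rose under any of these settings.

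With the transgene in mice without other lymphocytes, 4 of the 35 ribosomal protein genes fell and 0 rose in BDC2.5/NOD.scid against NOD.scid. Of all probe sets, 4.03% were lower and 2.37% higher in this comparison, and of the 223 bright probe sets of no ribosomal protein 22.4% were lower. The 4 were among the 19 bright genes, so that their share there was close to that of other bright probe sets. The median log2 fold change over the 35 genes was -0.05, and both groups were apart in the lower direction for 14 of them, against 22.2% of all probe sets. At an unadjusted limma p under 0.05, 10 genes were lower and 0 higher, against 10.4% of all probe sets lower and 7.0% higher. By that rule 7 of the 19 bright genes were lower, as were 32.7% of the 223 bright probe sets of no ribosomal protein.

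Rps10 read 9.10 and 8.96 in BDC2.5/NOD.scid, against 9.51 and 9.62 in NOD.scid. Its log2 fold change was -0.53 (SE 0.086, limma adjusted p = 0.00212), so that it fell with the transgene on both backgrounds. Rps3 did so too: it read 10.22 and 10.06 in BDC2.5/NOD.scid, against 10.58 and 10.50 in NOD.scid, a log2 fold change of -0.40 (SE 0.089, limma adjusted p = 0.0168). Rpl8, which lies close to the peptidyl transferase centre of the large subunit, read 9.49 and 9.33 in BDC2.5/NOD.scid, against 9.88 and 9.94 in NOD.scid. It fell by 0.50 on the log2 scale (SE 0.086, limma adjusted p = 0.00357). Rplp0, the base of the stalk that recruits elongation factors, read 11.00 and 10.95 in BDC2.5/NOD.scid, against 11.27 and 11.37 in NOD.scid. It fell by 0.35 on the log2 scale (SE 0.076, limma adjusted p = 0.0162). None of these 4 genes had overlapping groups.

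Rps7, Rps4x and Rpl7, which fell in BDC2.5/NOD, had small differences here. Rps7 read 10.25 and 10.11 in BDC2.5/NOD.scid, against 10.15 and 10.13 in NOD.scid. Rps4x read 10.35 and 10.03 in BDC2.5/NOD.scid, against 10.13 and 10.27 in NOD.scid. The Rpl7 values were 9.59 and 9.48 in BDC2.5/NOD.scid, against 9.49 and 9.39 in NOD.scid. The groups overlapped for Rps7, Rps4x and Rpl7, and none passed.

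Several marker lists moved in this comparison: 5 of 6 erythroid, 5 of 8 neutrophil, 7 of 13 proliferation, 5 of 12 islet and 5 of 10 fibroblast genes were lower, and 7 of 10 macrophage genes were higher. The summed macrophage level was 9.80 to 9.93 in BDC2.5/NOD.scid, against 8.96 to 9.05 in NOD.scid, and the erythroid sum was 11.00 to 11.10 in BDC2.5/NOD.scid, against 12.18 to 12.25 in NOD.scid. The fibroblast sum was 9.97 to 9.99 in BDC2.5/NOD.scid and 10.18 to 10.29 in NOD.scid. The neutrophil sum was 7.60 to 7.82 in BDC2.5/NOD.scid and 8.82 to 8.90 in NOD.scid, and the islet sum was 10.51 to 10.64 in BDC2.5/NOD.scid and 11.86 to 12.01 in NOD.scid. Their part in the ribosomal protein values was not tested. Leaving out BDC2.5/NOD.scid replicate 2 brought the 4 genes to 2, as did fitting only these groups and cyclic loess. With the actin control as a term 9 passed, all lower.

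**Figure D4:**
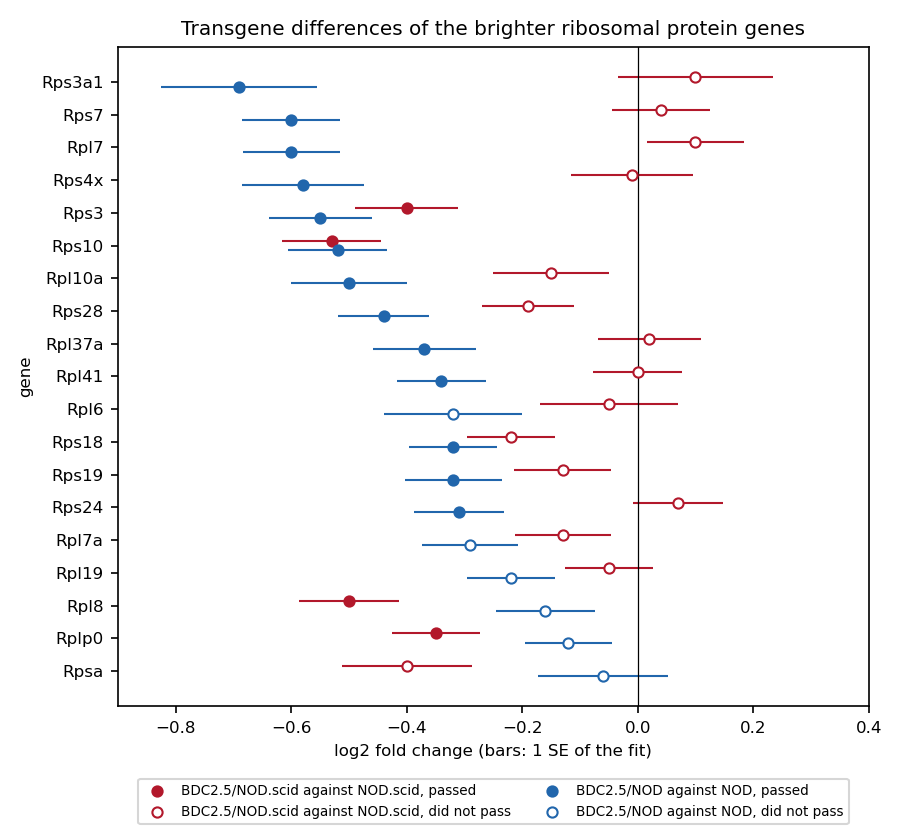
Log2 fold change with 1 SE for the 19 bright ribosomal protein genes in the 2 transgene comparisons, with filled points for genes past the threshold. All 19 points of BDC2.5/NOD against NOD lay left of 0, and Rps10 and Rps3 were filled in both comparisons.

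Whether the transgene difference itself differed between backgrounds was tested as an interaction, the change in NOD.scid minus the change in NOD. It was positive for 3 of the 35 genes and negative for 1, with 2.22% of all probe sets positive and 2.5% negative. The 3 positive genes were among the 19 bright genes. Of the 223 bright probe sets of no ribosomal protein, 9.87% were positive and 12.6% negative. Rps3a1 had an interaction of 0.79 (SE 0.19, limma adjusted p = 0.0342), with values of 9.78 and 9.35 in BDC2.5/NOD.scid, against 9.36 and 9.56 in NOD.scid. Rpl7 had an interaction of 0.70 (SE 0.118, limma adjusted p = 0.00523) and Rps7 of 0.64 (SE 0.12, limma adjusted p = 0.0097). These 3 were lower with the transgene in NOD mice, and their differences in NOD.scid mice did not pass.

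The negative interaction was that of Rpl13a, a large subunit protein known in human cells to silence inflammatory mRNAs once released from the ribosome. It read 5.75 and 5.85 in BDC2.5/NOD.scid, against 6.14 and 6.08 in NOD.scid. Its values were 6.14 and 6.02 in BDC2.5/NOD, against 5.86 and 5.90 in NOD. The interaction was -0.52 (SE 0.13, limma adjusted p = 0.0408), while neither transgene comparison passed by itself. For Rps10 and Rps3 the interaction did not pass. Without BDC2.5/NOD replicate 1 the interaction passed for 0 genes, without replicate 2 for 1, and without NOD replicate 2 or NOD.scid replicate 1 for 2. With the actin control as a term it passed for 8.

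Without the transgene, the scid mutation went with changes in both directions. In NOD.scid against NOD, 2 of the 35 genes rose and 1 fell, against 0.741% of all probe sets higher and 1.61% lower. All 3 were among the 19 bright genes. Of the 223 bright probe sets of no ribosomal protein, 5.38% were higher and 9.87% lower. Rpsa, a small subunit protein also known as a precursor of the laminin receptor, read 9.01 and 9.17 in NOD.scid, against 8.47 and 8.61 in NOD. It rose by 0.55 on the log2 scale (SE 0.113, limma adjusted p = 0.0258). Rpl8 read 9.88 and 9.94 in NOD.scid, against 9.38 and 9.51 in NOD, and rose by 0.46 (SE 0.086, limma adjusted p = 0.0151). Rpl7 went the other way, with 9.49 and 9.39 in NOD.scid, against 9.97 and 10.02 in NOD, a log2 fold change of -0.56 (SE 0.084, limma adjusted p = 0.00427). Its second, dim probe set gave 0.18 and did not pass. The median over the 35 genes was -0.03. In the same comparison 5 of 6 erythroid and 6 of 8 neutrophil genes were higher in NOD.scid, and their part was not tested. None passed without NOD replicate 2 or without NOD.scid replicate 2, and 1 passed without NOD replicate 1. With the actin control as a term 7 passed.

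With the transgene, 3 of the 35 genes rose and 0 fell in BDC2.5/NOD.scid against BDC2.5/NOD, against 2.99% of all probe sets higher and 5.35% lower. At an unadjusted limma p under 0.05, 14 genes were higher and 2 lower, against 7.87% of all probe sets higher and 13.0% lower. All 3 genes that passed encode small subunit proteins. Rps7 read 10.25 and 10.11 in BDC2.5/NOD.scid, against 9.76 and 9.77 in BDC2.5/NOD, a log2 fold change of 0.41 (SE 0.085, limma adjusted p = 0.01). Rps3 read 10.22 and 10.06 in BDC2.5/NOD.scid, against 9.76 and 9.77 in BDC2.5/NOD, a log2 fold change of 0.38 (SE 0.089, limma adjusted p = 0.0196). The groups were apart for both genes. Rps28 read 11.09 and 10.94 in BDC2.5/NOD.scid, against 10.71 and 10.69 in BDC2.5/NOD, and rose by 0.32 (SE 0.079, limma adjusted p = 0.0284), while its dim probe set fell by 0.41 (limma adjusted p = 0.0483).

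All 19 bright genes had a log2 fold change above 0 in this comparison, between 0.03 and 0.41, and the median over the 35 genes was 0.14. It shares the BDC2.5/NOD arrays with BDC2.5/NOD against NOD, so the directions in both are not independent. Of the 39 probe sets of several symbols, 9 were higher and 0 lower. Of the other 223 bright probe sets 7.62% were higher and 20.2% lower. Within the arrays of low actin control the bright genes had a median of 0.28, with all 19 above 0. Of 10 macrophage genes 8 were higher in BDC2.5/NOD.scid. The erythroid sum was 11.00 to 11.10 in BDC2.5/NOD.scid, against 10.55 to 10.58 in BDC2.5/NOD, with 2 of 6 genes higher. The fibroblast sum was 9.97 to 9.99 in BDC2.5/NOD.scid, against 9.68 to 9.70 in BDC2.5/NOD, with 2 of 10 genes higher and 1 lower. The islet sum was 10.51 to 10.64 in BDC2.5/NOD.scid, against 11.03 to 11.07 in BDC2.5/NOD, with 1 of 12 genes lower. The part of these cells was not tested. None passed when either BDC2.5/NOD array was left out, and 5 rose when BDC2.5/NOD.scid replicate 2 was. When BDC2.5/NOD.scid replicate 1 was left out, none rose and 1 fell. With the actin control level as a term 9 rose, with it as a split 10 rose and 1 fell, and without the arrays of high actin control 14 rose and 2 fell.

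Other genes of protein synthesis did not all move as the ribosomal protein genes did. In BDC2.5/NOD against NOD, 7 of 18 cytosolic aminoacyl tRNA synthetases, which charge tRNAs with amino acids, rose and 1 fell. These were 38.9% and 5.56%, beside 3.91% and 4.06% of all probe sets, and the list had a median log2 fold change of 0.30. Rars, which charges arginine tRNA, read 6.44 and 6.65 in BDC2.5/NOD, against 5.67 and 5.81 in NOD, and rose by 0.81 (limma adjusted p = 0.000596). Lars, for leucine, fell by 0.39. Mitochondrial ribosomal protein genes, which encode the separate ribosome of mitochondria, passed for 0 of 61 genes in that comparison by limma, with 5 higher and 4 lower at an unadjusted p under 0.05.

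Partners of the ribosome with mRNAs of the same pyrimidine-tract class fell for 3 of 11 genes in BDC2.5/NOD against NOD. Npm1, a nucleolar chaperone of ribosome assembly, read 6.48 and 6.77 in BDC2.5/NOD, against 7.54 and 7.50 in NOD, and fell by 0.90 (limma adjusted p = 0.000735). Pabpc1, which binds poly(A) tails, fell by 0.66 and Tpt1 by 0.28. Of 50 genes of ribosome biogenesis 2 rose (Bop1 by 0.43 and Mybbp1a by 0.41). Another 3 fell (Npm1, Imp3 and Myc, a transcription factor that drives ribosome synthesis, at -0.81). These shares, 4.0% higher and 6.0% lower, were near those of all probe sets, 3.91% and 4.06%, so the list as a whole did not stand out. Myc was dim, at 3.11 and 3.03 in BDC2.5/NOD against 4.13 and 3.64 in NOD. These values lay below the median of all probe sets, 4.27. Of 32 initiation genes, Eif4ebp1, a translation repressor controlled by MTOR, rose by 0.45 and Pabpc1 fell. That is 3.12% each way, also near the shares of all probe sets. Of 11 elongation genes only Tpt1, which is on both lists, passed. Of 11 MTOR pathway genes, Ddit4, an inhibitor of MTOR, rose by 0.79 and Eif4ebp1 rose.

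In BDC2.5/NOD.scid against NOD.scid, 8 of 61 mitochondrial ribosomal protein genes fell and 1 rose (13.1% and 1.64%, beside 4.03% and 2.37% of all probe sets), among them Mrpl28 with a log2 fold change of -0.68, Mrps25 with -0.67 and Mrps24 with -0.63, while Mrpl2 rose by 0.37. Synthetases, initiation, elongation and partner genes passed for 0 of 18, 0 of 32, 0 of 11 and 0 of 11. At an unadjusted limma p under 0.05, 1 synthetase, 9 initiation genes, 1 elongation gene and 0 partner genes differed. Of the 50 biogenesis genes Nhp2 and Imp3 fell, 4.0% beside 4.03% of all probe sets. Ddit4 read 7.46 and 7.32 in BDC2.5/NOD.scid, against 5.35 and 5.51 in NOD.scid, and rose by 1.96 (limma adjusted p = 5.98e-08). Larp1, which binds the pyrimidine tracts of ribosomal protein mRNAs, rose by 0.50 (limma adjusted p = 0.042).

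The comparison between the transgenic groups shares its BDC2.5/NOD arrays with BDC2.5/NOD against NOD. In BDC2.5/NOD.scid against BDC2.5/NOD, where 3 ribosomal protein genes rose, 11 of 18 synthetases, 9 of 32 initiation genes, 9 of 50 biogenesis genes and 5 of 61 mitochondrial ribosomal protein genes fell and 0 of each rose. Rars fell by 1.19 (limma adjusted p = 2.01e-05) and Pno1, a factor of small subunit assembly, by 0.90. In NOD.scid against NOD, 3 of 18 synthetases, 4 of 32 initiation genes and 3 of 50 biogenesis genes fell and 0 rose. These were 16.7%, 12.5% and 6.0%, beside 1.61% of all probe sets lower and 0.741% higher. Npm1 fell by 0.72.

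**Figure D5:**
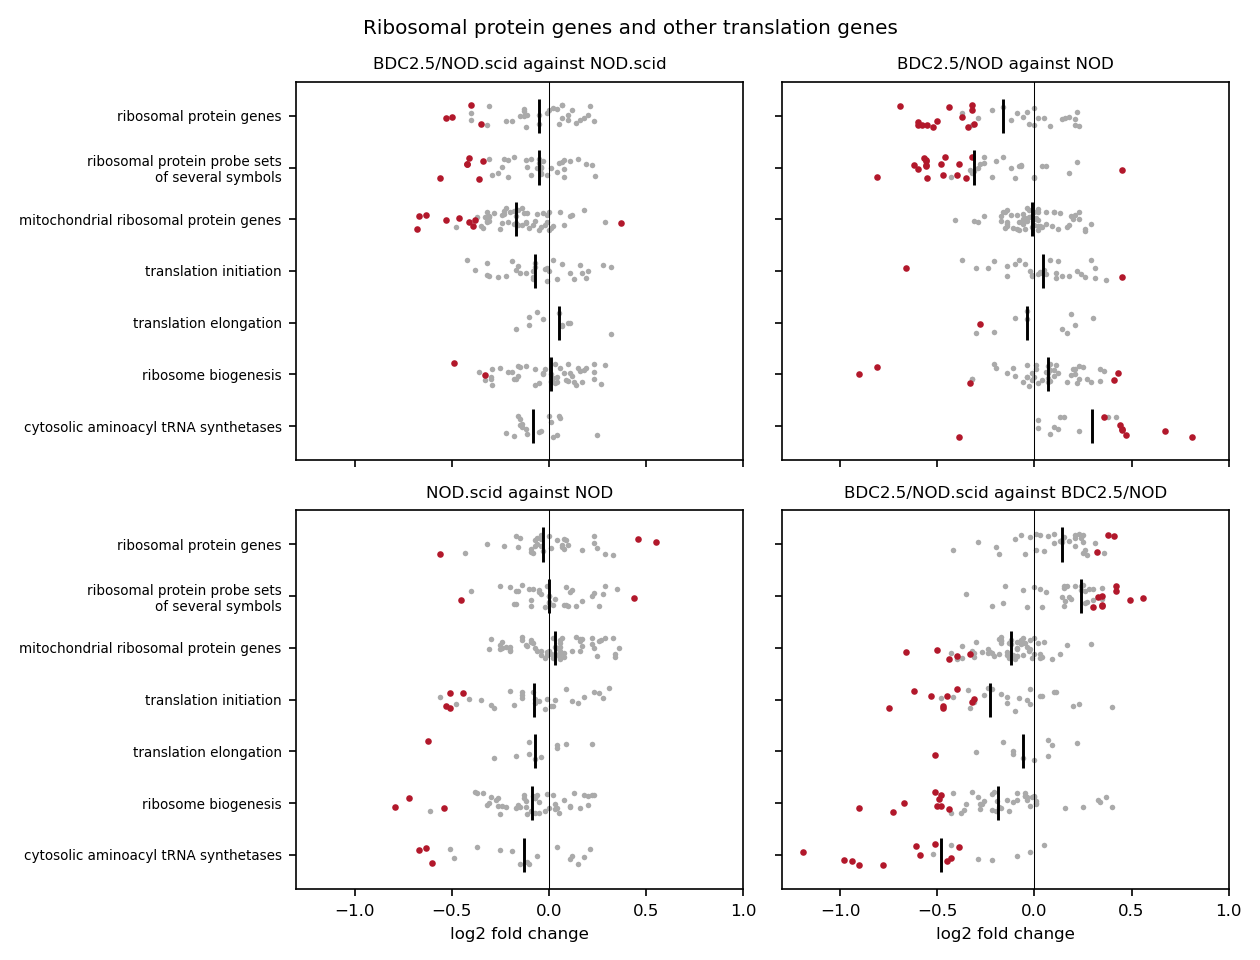
Log2 fold changes of single genes or probe sets (points, red where past the threshold) and list medians (bars) in the 4 pairwise comparisons. In BDC2.5/NOD against NOD the ribosomal protein rows reached to the left and the synthetases to the right, and BDC2.5/NOD.scid against BDC2.5/NOD, which uses the same BDC2.5/NOD arrays as its second group, had the synthetases to the left.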

How the data were processed

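RNA of whole pancreas was measured on 8 Affymetrix arrays. The deposited table gave 1 value per probe set and array, taken to be log2 because values reached at most 13.78; how the authors corrected background, normalized and summarised probes was unstated in the labels and headers. The deposited log2 values were used without further scaling. Of 12488 probe sets, 66 controls were left out and 12422 tested; the platform annotation gave 1 symbol for 10833, several for 396 and none for 1193.

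A limma model (version 3.58.1, R 4.3.3) gave the means of all groups on the 8 arrays together (variance trend, 4 residual and 8.07 prior degrees of freedom), with two-sided tests and Benjamini-Hochberg adjustment over all probe sets. A gene passed at an adjusted p under 0.05. The number of arrays limits the precision. The code was tested on simulated data. Values per array are given for Rpl7, Rps7, Rps4x and Rps3, for up to 6 genes per direction and comparison with the largest change past the threshold (up to 4 for the interaction), for the brightest and dimmest gene, and for genes whose probe sets went opposite ways past the threshold. The genes and lists were chosen with earlier results of these data known. Summed levels of a marker list are the log2 of the sum of linear values. Promoters are RefSeq records of GRCm38.p6, 250 bases before to 50 after the start. Alternatives comprised 21 planned settings and 4 added after seeing the data.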

Additional observations from a re-analysis of the deposited data

Results flagged for a closer look

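For 4 ribosomal protein genes the transgene difference in NOD.scid mice differed from that in NOD mice by the test of the difference itself. The interaction on the log2 scale was 0.79 for Rps3a1, 0.70 for Rpl7, 0.64 for Rps7 and -0.52 for Rpl13a. Each interaction uses the arrays of all 4 groups, the BDC2.5/NOD pair among them. Both BDC2.5/NOD arrays lay below the other 6 for Rps3a1 and Rps7. Both NOD arrays lay above the other 6 for Rpl7 and Rps7. Leaving out 1 of the 8 arrays took the limma adjusted p past 0.05 for Rpl13a with any array, and for Rps3a1 with 5 of the 8. It did so for Rps7 without either BDC2.5/NOD array (0.0689 without replicate 1 and 0.0623 without replicate 2), and for Rpl7 without BDC2.5/NOD replicate 1 (0.0562).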

How the results depend on the processing

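Over the alternatives run, Rps7 and Rps3 remained past the threshold in BDC2.5/NOD against NOD in all 24, and Rps10 and Rpl8 in BDC2.5/NOD.scid against NOD.scid in all 25. The other values were as follows, in counts of the 35 genes. In BDC2.5/NOD against NOD the 13 became 7 with cyclic loess, 8 with the replicate block, 8 at a threshold of 0.01, 4 with the BDC2.5/NOD arrays averaged as 1 sample, and 3 to 14 with 1 array left out. In BDC2.5/NOD.scid against NOD.scid the 4 became 9 with the actin control level as a term, 9 with it as a split, 8 without the arrays of high actin control, 2 with cyclic loess, 2 with only the groups compared, 2 at 0.01, and 2 to 6 with 1 array left out. In NOD.scid against NOD the 3 became 7 with the actin level, 8 with the split, 9 without the high actin arrays, 1 at 0.01, and 0 to 4 with 1 array left out. In BDC2.5/NOD.scid against BDC2.5/NOD the 3 became 9 with the actin level, 11 with the split, of which 1 fell, 16 without the high actin arrays, of which 2 fell, 5 with array weights, 0 with averaging, 0 at 0.01, 8 at 0.1, and 0 to 5 with 1 array left out. The interaction count of 4 became 8 with the actin level, 9 with the split, 12 without the high actin arrays, 1 with averaging, 2 with the replicate block, 2 at 0.01, and 0 to 5 with 1 array left out. The causes were not tested. The interaction could not be computed from only the groups compared. The split, the averaging, the omission of high actin arrays, which leaves 1 array in 3 groups, and the crossed block were chosen after seeing the data.

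Rpl7 reversed with probe sets of plain suffix only, which take its dim probe set: 0.09 in BDC2.5/NOD against NOD, 0.18 in NOD.scid against NOD and -0.01 for the interaction. The mean of all probe sets gave Rps4x -0.03 and Rps28 -0.12 in BDC2.5/NOD against NOD. The median over the genes moved by more than the spread between arrays in 1 case, to -0.32 in BDC2.5/NOD against NOD when dim probe sets were left out. That setting drops the 8 genes below the median of all probe sets, so its median is over fewer genes. Title numbers did not pair the arrays in 1 direction: same-numbered deviations correlated at -0.322 to 0.287 across probe sets. With 2 arrays a group, a negative value means that deviations match once the numbers of 1 group are crossed. Among BDC2.5/NOD.scid, NOD.scid and NOD the signs went with which replicate had the high actin control, and the cause was not tested. With the BDC2.5/NOD.scid numbers crossed (correlation -0.192 as given), 6 genes passed in BDC2.5/NOD.scid against NOD.scid. No detection calls were used here, so how far the 16 dim genes exceed background is unknown.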
